A study of Homo sapiens with 3 samples.

Results

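Apoptosis genes of the BCL2 family, the caspases and the inhibitor of apoptosis proteins (IAPs) were examined in NB4 cells in which ARID1B was silenced. The set of 34 genes was chosen by symbol, from pro- and anti-apoptotic BCL2 proteins, apoptotic caspases, IAPs and death adaptors, and all 34 were found among the 57773 Ensembl gene IDs of the count table. The NB4 line was derived from a patient with acute promyelocytic leukaemia and bears the PML-RARA fusion, and ARID1B belongs to the BAF complex, which moves nucleosomes. Polyadenylated RNA was sequenced from 2 libraries of cells with short hairpin RNAs (shRNAs) against ARID1B, hairpin 2 in the first and hairpin 3 in the second, and from 1 library of cells with a control shRNA that targets no gene. All 3 came from the same line grown in RPMI with fetal bovine serum, the labels name no further allele or agent, and separate infections or cultures are not stated. Of the 34 genes, all passed the filter on low counts, which kept 20382 genes for testing.

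Apoptosis inside a cell is decided at the outer mitochondrial membrane. Pro-survival BCL2 proteins hold back the pore formers BAX and BAK1, BH3-only proteins relieve that block, and the cytochrome c that leaks out assembles with APAF1 into the apoptosome, which activates CASP9. Death receptors reach the caspases from outside, through FADD and CASP8, and IAPs restrain the caspases or act as ubiquitin ligases. Myeloid cells are known to depend on MCL1 and, as they mature, to express BCL2A1.

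ARID1B had 2209 counts under hairpin 2 and 2234 under hairpin 3, against 5268 in the control library, so the targeted transcript was lower in both knockdown libraries (log2 fold change -1.23 ± 0.125 SE, edgeR adjusted p = 1.4e-05). Total counts were 59997475 and 62954803 in the knockdown libraries and 61640692 in the control, and mitochondrial genes took 5.74% and 5.9% of the counts, against 5.98% in the control. Of 9 tested promyelocyte markers, PRTN3 rose (14914 and 13672 counts, against 3363 in the control) and CTSG fell (1672 and 2183 counts, against 6837), while ELANE, which promyelocytes also make, had 4 and 1 counts, against 10, and did not pass. KIT, on the same list, had 6 and 6 counts, against 3, and was not tested, since the filter on low counts removed it. The other tested markers of that list, MPO among them, did not pass. Markers of other cells moved with the knockdown, where 5.49% of all genes tested were called higher and 3.21% lower. Of 13 tested eosinophil, basophil and mast cell markers 10 rose and 0 fell, with a summed level, over all listed markers, of 2167 and 1142 CPM (counts scaled to library size) against 94.7 CPM in the control, and FCER1A was at 0 in every library. Of 5 tested mature neutrophil markers 4 rose and 0 fell (77.6 and 49.5 CPM in sum, against 25.2 CPM, with CEACAM8 at 0), and of 7 tested monocyte and macrophage markers 3 rose and 0 fell (179 and 122 CPM, against 98.9 CPM). MMP9 made up most of the mature neutrophil sum (57 and 38 CPM, against 10.1 CPM). CAMP and FPR1, which also rose, had 3 and 5 counts in the control. Of the 12 listed mature neutrophil markers, FCGR3B, CXCR1, CD177, S100A12, LTF and LCN2 had at most 6 counts in any library and were not tested. CD4, which did not pass, made up most of the monocyte and macrophage sum (105 and 70.1 CPM, against 66.9 CPM). Of the 7, CSF1R alone had a negative fitted change (-0.42), and CD68, which rose, shares 85.8% of its exon length with AC016876.2. Of 5 tested markers of T, NK and B cells 2 rose (61.6 and 46.7 CPM, against 33.8 CPM, with MS4A1 at 0), and of 4 tested erythroid and megakaryocyte markers 2 rose (83.6 and 49.2 CPM, against 26.7 CPM, with HBA1, PF4 and GP9 at 0). Of 4 tested epithelial, fibroblast and packaging cell markers 0 rose and 2 fell (433 and 432 CPM, against 599 CPM, with KRT19 at 0). VIM, 1 of the 2, made up most of that sum (414 and 408 CPM, against 573 CPM). The other, COL6A1, had 0.499 and 0.994 CPM, against 2.45 CPM. The part of these markers in the results on apoptosis genes was not tested. In RNA from a whole culture, fewer cells of a type and less RNA per cell cannot be told apart.

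With ARID1B silenced, 4 of the 34 genes rose and 0 fell: the pro-survival genes BCL2A1 and BCL2L1, the BH3-only gene BIK and the initiator caspase gene CASP8. The rises were 3-fold for BCL2A1, 1.93-fold for BIK, 1.72-fold for CASP8 and 1.46-fold for BCL2L1. Over all genes tested, 5.49% were called higher and 3.21% lower (8.7% in either direction; edgeR quasi-likelihood test with Benjamini-Hochberg adjusted p under 0.05). Among genes with a mean level of at least 5 CPM, a subset chosen after seeing the data, 2 of 29 apoptosis genes were called higher and 0 lower, against 7.13% and 3.81% of all such genes, so for well expressed genes the share was near that of all genes. At an unadjusted p under 0.05 in edgeR, 7 of the 34 were higher and 2 lower, against 11.4% and 9.37% of all genes, and DESeq2 called 2 higher and 0 lower, against 3.8% and 1.36%. With robust empirical Bayes edgeR called 4 higher and 0 lower (4.39% and 2.85% of all genes), with a mean of at least 1 CPM 2 and 0 (4.15% and 2.26%), against a fold change of 1.5 1 and 0 (1.59% and 0.648%), and with library size alone 4 and 1 (5.94% and 4.19%). Without the filter on low counts edgeR called 0 genes of the 32925 then tested, ARID1B included (adjusted p = 0.465), so each call given here was lost there. At an unadjusted p under 0.05 that fit had 7 of the 34 higher and 0 lower, against 5.21% and 4.56% of the 32925. The 32925 include low-count genes that the filter removes, while all 34 pass it, so these shares come from unlike sets. In the filtered fit the unadjusted shares were the 11.4% and 9.37% given above. Against a fold change of 1.5 BCL2A1 alone of the 34 was called. The median log2 fold change of the 34 was 0.15, with 24 above 0, while the median of all genes tested was -0.012, with 48.5% above 0. Under hairpin 2 the median difference from the control was 0.13 and under hairpin 3 it was 0.11, in log2 CPM, and these share the control library. The fit had 1 residual degree of freedom, against 14.8 prior degrees of freedom from the trend over all genes, so the standard errors rest mainly on that shared spread, and the 1 control library is taken to vary as the hairpin libraries do.

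**Figure D1:**
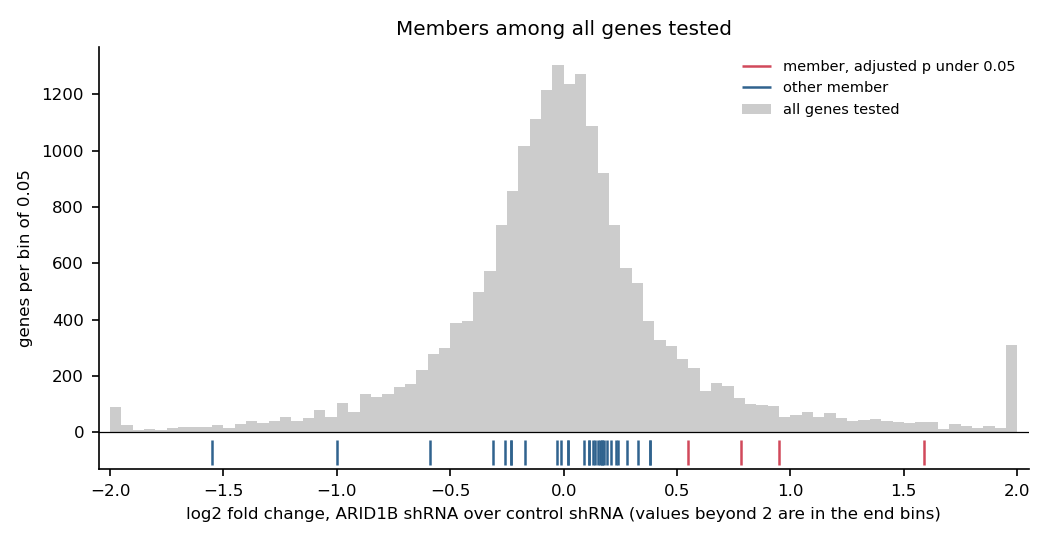
Distribution of the fitted log2 fold change (x axis, ARID1B shRNA over control shRNA) over 20382 genes tested (y axis, genes per bin, values beyond 2 in the end bins), with a tick below for each of the 34 apoptosis genes. The 4 called genes lie between 0.55 and 1.59, and the lowest tick, at -1.55, is HRK.

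Of 6 pro-survival BCL2 genes 2 rose, BCL2A1 and BCL2L1, and 0 fell, against 5.49% and 3.21% of all genes tested. BCL2A1, whose protein (BFL-1) sequesters BH3-only proteins in leukocytes, had 410 counts under hairpin 2 and 348 under hairpin 3, against 128 in the control library. In levels this was 6.2 ± 0.874 CPM (SD, n = 2) in the knockdown libraries and 2.06 CPM in the control, and both knockdown libraries lay above the control. The log2 fold change was 1.59 ± 0.248 (SE; edgeR adjusted p = 5.6e-04; range over alternatives 5.3e-05 to 0.465), and the count ratio to the control was 3.31 under hairpin 2 (exact 95% counting interval 2.71 to 4.07) and 2.71 under hairpin 3 (2.21 to 3.34). BCL2L1, which encodes the pro-survival protein BCL-xL and a shorter pro-apoptotic splice form that gene counts do not separate, had 2444 and 2225 counts under hairpins 2 and 3, against 1624 in the control. It rose by 0.55 ± 0.144 on the log2 scale (edgeR adjusted p = 0.0259), both knockdown libraries again above the control, and the call was lost with DESeq2 and when genes with a mean under 1 CPM were left out (adjusted p = 0.0591 and 0.0658; range over alternatives 0.0146 to 1).

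MCL1, a short-lived pro-survival protein that binds BAK1 and the BH3-only protein NOXA, had 8950 and 8727 counts under hairpins 2 and 3, against 6884 in the control. Its log2 fold change of 0.38 ± 0.132 had a 95% interval of 0.1 to 0.66 and did not pass after adjustment (edgeR adjusted p = 0.0913). BCL2, the founding member of the family, had 6798 and 8711 counts, against 9214 in the control, and a log2 fold change of -0.23 ± 0.143 (interval -0.53 to 0.072, edgeR adjusted p = 0.398). Hairpin 2 stood further below the control than hairpin 3, with 0.762 and 0.942 of the control level, so the hairpins differed more from each other than hairpin 3 did from the control. BCL2L2 (BCL-w) had 1999 and 2157 counts, against 2470, and BCL2L12, a more distant relative, had 1616 and 1929, against 2151. Neither passed (log2 fold changes of -0.23 ± 0.133 and -0.26 ± 0.142, edgeR adjusted p = 0.364 and 0.327). The readthrough gene BCL2L2-PABPN1 covers 24.3% of the exon length of BCL2L2, and IRF3, on the other strand, 33.1% of that of BCL2L12, so the counts of both are uncertain.

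Per kilobase of exon length, MCL1 stood highest of the 6 pro-survival genes in each library, at 34 and 32 CPM per kb under hairpins 2 and 3 and 25.4 CPM per kb in the control. BCL2A1 made up 7.61% and 6.25% of the summed per-length level of the 6 genes under hairpins 2 and 3, against 2.6% in the control, and was the lowest of the 6 in each library. BCL2 made up 11.7% and 14.5%, against 17.3% in the control. BCL2L1 stood at 12.3 and 10.8 CPM per kb, above the 9.61 of BCL2 under hairpin 2 and below the 11.9 of BCL2 under hairpin 3, against 7.89 for BCL2L1 and 12.6 for BCL2 in the control. Exon lengths cover all annotated transcripts of a gene, so a per-length level is understated where long exons are not used.

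**Figure D2:**
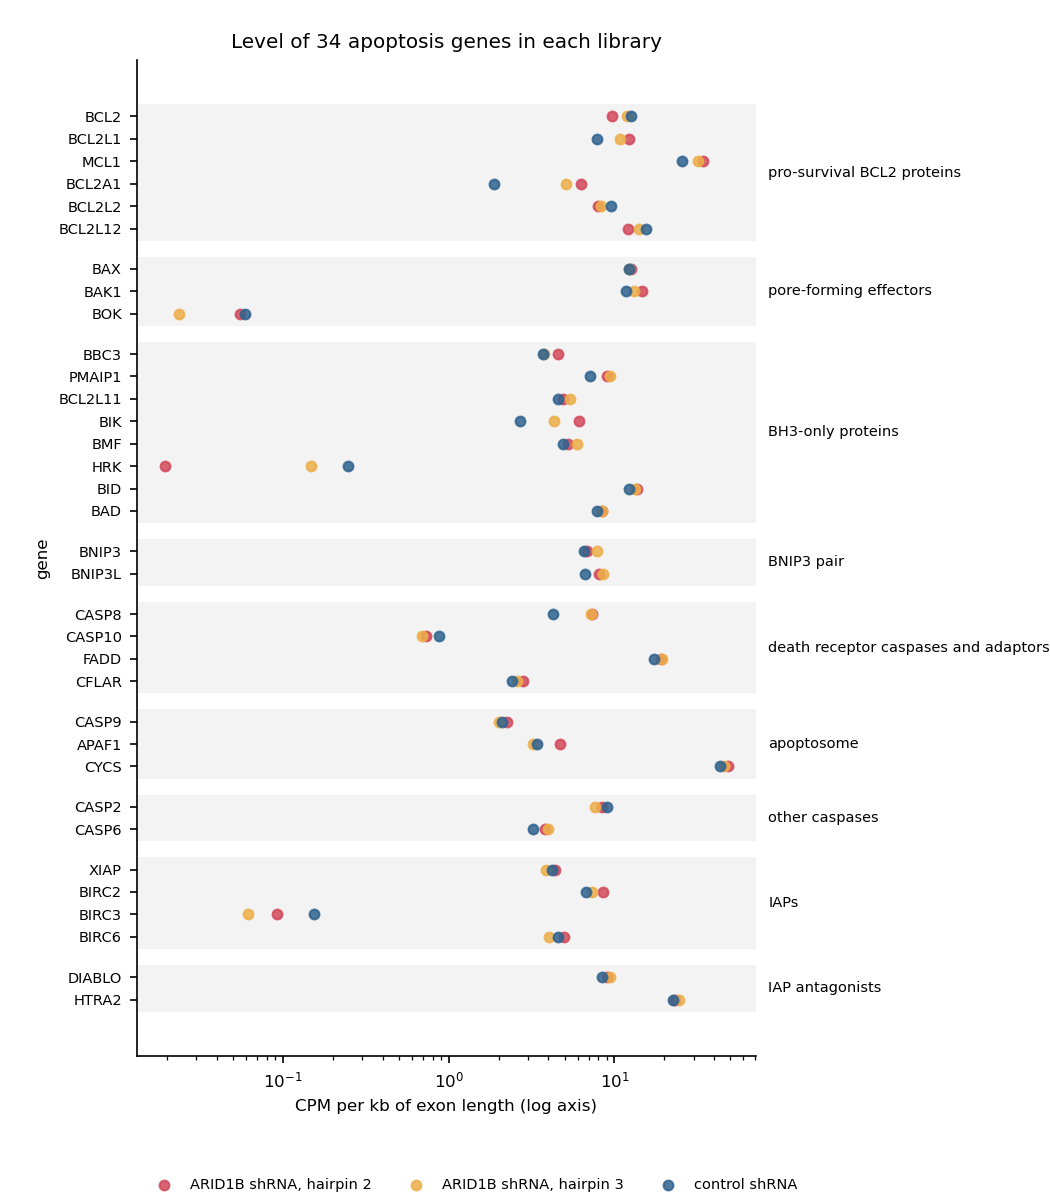
Level of each of the 34 genes in CPM per kb of exon length (log axis) in the 2 ARID1B shRNA libraries and the control shRNA library, grouped by role. Most genes lie within a narrow span across the 3 libraries, BCL2A1, BIK and CASP8 lie higher in both knockdown libraries, and BOK, HRK and BIRC3 are at or below 0.247 CPM per kb in every library.

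The stretch before the annotated start is shown for BCL2A1 and CASP8, the called genes that DESeq2 also called. The sequences are RefSeq windows on GRCh38.p14 of 250 bases, from the most upstream start in the table, written 5′ to 3′ along the gene, at chr15:79971197-79971446 (minus strand) for BCL2A1 and chr2:201233213-201233462 (plus strand) for CASP8. Capitals mark matches, on either strand, to the GATA motif (GATAA), the PU.1 core (GAGGAA) and the GC box (GGGCGG). The AP-1 motif (TGANTCA) was also searched.
BCL2A1: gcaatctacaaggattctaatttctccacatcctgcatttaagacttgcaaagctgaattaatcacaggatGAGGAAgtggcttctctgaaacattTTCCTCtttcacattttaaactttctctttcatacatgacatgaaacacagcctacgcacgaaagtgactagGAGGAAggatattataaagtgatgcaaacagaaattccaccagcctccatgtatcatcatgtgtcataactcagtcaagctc
CASP8: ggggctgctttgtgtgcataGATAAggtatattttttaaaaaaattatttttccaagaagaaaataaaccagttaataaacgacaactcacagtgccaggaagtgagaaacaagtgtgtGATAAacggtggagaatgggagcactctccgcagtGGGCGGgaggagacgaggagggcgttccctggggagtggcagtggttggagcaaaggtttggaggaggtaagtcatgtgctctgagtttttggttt
The BCL2A1 window held the PU.1 core at 179, 154 and 82 bases before the start, the match at 154 being on the other strand, and 23.6% of the 35116 windows of this length in the table hold it at least once. The CASP8 window held GATA matches at 230 and 131 bases before the start, a motif in 20.4% of all windows, and a GC box at 96, a motif in 42.6%. The third CASP8 window in the table held an AP-1 match at 61 bases before its start (6.57% of all windows). The second CASP8 window and both windows of BCL2L1, also called, held none of these motifs. BIK, the remaining called gene, has no window in the table. The table lists 52 windows for 29 of the 34 genes, and 10 of the 52 held the PU.1 core, 11 the GATA motif and 33 the GC box. A match describes the letters and not a bound site, and gene counts do not say which start was used.

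Among the pore formers, BAX had 1955 and 1967 counts under hairpins 2 and 3, against 1960 in the control, and a log2 fold change of 0.021 ± 0.136, with an interval of -0.27 to 0.31. BAX had almost the same counts in the 3 libraries, and its fitted direction turned to -0.027 with upper quartile factors. BAK1 had 1936 and 1804 counts, against 1617, both knockdown libraries above the control without passing (0.23 ± 0.143, edgeR adjusted p = 0.398). BOK, a relative of BAX and BAK1, was nearly silent, with 9 and 4 counts, against 10 in the control.

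Of 8 BH3-only genes, 1 rose and 0 fell, against 5.49% and 3.21% of all genes tested. BIK, which acts at the endoplasmic reticulum, had 349 counts under hairpin 2 and 256 under hairpin 3, against 159 in the control, both knockdown libraries above the control. Its log2 fold change was 0.95 ± 0.263 (edgeR adjusted p = 0.0338), with a count ratio to the control of 2.27 (1.87 to 2.75) under hairpin 2 and 1.6 (1.31 to 1.97) under hairpin 3. The BIK call was lost with DESeq2 (adjusted p = 0.134) and with a mean of at least 1 CPM (0.0894; range over alternatives 0.0167 to 0.52). PMAIP1, which encodes NOXA, the partner of MCL1, had 1213 and 1309 counts, against 982, and 0.38 ± 0.151 (interval 0.06 to 0.7, edgeR adjusted p = 0.151). BBC3, which encodes PUMA, had 873 and 748 counts, against 733, and 0.17 ± 0.173. BCL2L11, which encodes BIM, had 1955 and 2248 counts, against 1897, and 0.17 ± 0.14. Neither of these was past the threshold (edgeR adjusted p = 0.659 and 0.566). BMF, BID and BAD had log2 fold changes of 0.19, 0.13 and 0.11 and did not pass, and the counts of BAD are uncertain, since GPR137 on the other strand covers 23.7% of its exon length. BID, which CASP8 cuts into its active form, was the most abundant BH3-only gene per length in every library, at 13.6, 13.3 and 12.3 CPM per kb under hairpin 2, under hairpin 3 and in the control.

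HRK, a BH3-only gene best known from neurons, set the hairpins apart. It had 8 counts under hairpin 2 and 63 under hairpin 3, against 105 in the control library, so hairpin 2 was far below both other libraries. The count ratio to the control was 0.0787 under hairpin 2 (exact 95% counting interval 0.0331 to 0.161) and 0.598 under hairpin 3 (0.43 to 0.824), and the ratio of hairpin 2 to hairpin 3 was 0.132 (0.0545 to 0.276). The log2 fold change of -1.55 ± 0.535 did not pass (edgeR adjusted p = 0.0925). It was -0.72 without hairpin 2 and -3.36 without hairpin 3, and with library size alone HRK was called lower (adjusted p = 0.0278; range over alternatives 0.0278 to 0.569). The difference between the hairpins has no replicate check, and the intervals cover counting error only.

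**Figure D3:**
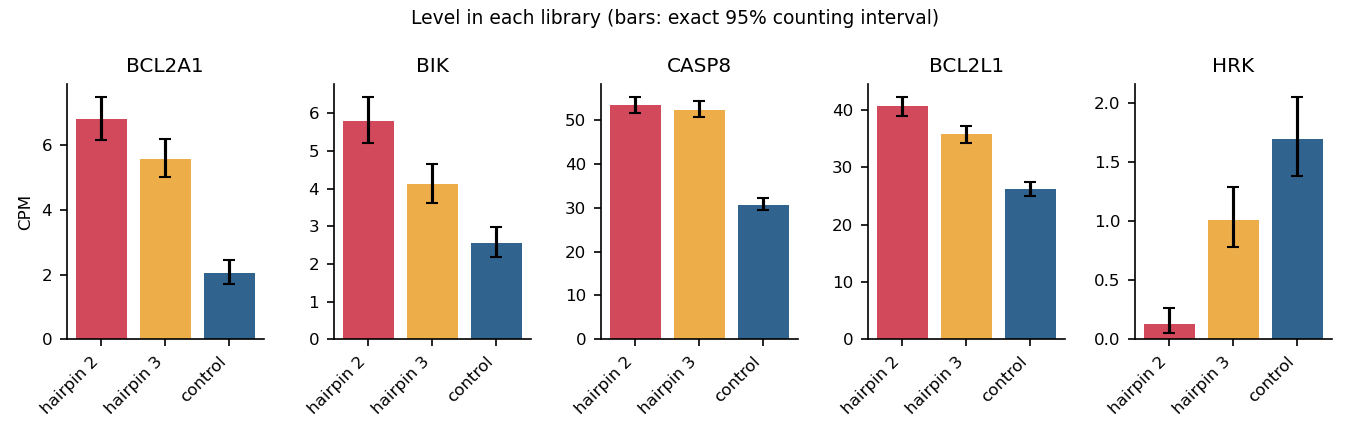
CPM (y axis, from 0, a separate scale in each panel) of the 4 called genes and of HRK under hairpin 2, hairpin 3 and the control shRNA, with exact 95% counting intervals as bars. In the 4 called genes both knockdown libraries stand above the control, and in HRK hairpin 2 stands at 0.133 CPM, hairpin 3 at 1.01 CPM and the control at 1.69 CPM.

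BNIP3 and BNIP3L are related to BH3-only proteins and act mainly as receptors for the removal of mitochondria. BNIP3L had 2096 and 2305 counts under hairpins 2 and 3, against 1775, both above the control (0.33 ± 0.138, interval 0.037 to 0.62, edgeR adjusted p = 0.176). BNIP3 had 2190 and 2618 counts, against 2156, and 0.18 ± 0.141. The pair thus had positive fitted changes that did not pass after adjustment.

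On the death receptor side, CASP8, the initiator caspase of death receptors, had 3210 counts under hairpin 2 and 3263 under hairpin 3, against 1909 in the control. The knockdown libraries averaged 52.9 ± 0.733 CPM (SD, n = 2) and the control had 30.7 CPM, and the hairpins were close to each other and both above the control. CASP8 rose by 0.78 ± 0.135 on the log2 scale (edgeR adjusted p = 0.00141), with a count ratio to the control of 1.74 (1.64 to 1.84) under hairpin 2 and 1.7 (1.61 to 1.8) under hairpin 3. The call was also lost against a fold change of 1.5 (adjusted p = 0.457; range over alternatives 2.7e-04 to 0.465). Its neighbours on chromosome 2 are CASP10, a close paralogue that death receptors also recruit, and CFLAR, whose protein (c-FLIP) is a catalytically inactive relative that blocks CASP8. CASP10 had 333 and 326 counts, against 415 in the control, and CFLAR had 3815 and 3638, against 3379. Neither passed, with log2 fold changes of -0.31 ± 0.198 and 0.16 ± 0.132 (edgeR adjusted p = 0.414 and 0.55). FADD, the adaptor that brings CASP8 to the receptors, had 2121 and 2221 counts, against 1984 (0.15 ± 0.135). A gene on the other strand covers 54.9% of the exon length of FADD, and strand use in the counting is not given, so its counts are uncertain.

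The apoptosome genes gave no call (0 of 3 in edgeR, 0 at an unadjusted p under 0.05, 0 in DESeq2). APAF1, the scaffold, had 2222 counts under hairpin 2 and 1601 under hairpin 3, against 1680 in the control, so hairpin 2 alone stood above the control, and the ratio of hairpin 2 to hairpin 3 was 1.44 (1.35 to 1.54). CASP9, the initiator caspase it activates, had 711 and 660 counts, against 687, and a log2 fold change of 0.018 ± 0.17 that turned to -0.03 with upper quartile factors. CYCS, which encodes cytochrome c and has processed pseudogenes that can share its reads, had the highest level per length of the 34 genes, at 48.3 and 46.1 CPM per kb under hairpins 2 and 3 and 43.6 CPM per kb in the control. CASP2, a caspase of the DNA damage response, had 4044 and 3835 counts, against 4506 (-0.17 ± 0.13), and the executioner CASP6 had 443 and 485, against 387 (0.28 ± 0.192), neither past the threshold.

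None of the 4 IAP genes was called in edgeR or DESeq2, and 1, BIRC3, had an unadjusted p under 0.05. XIAP, which binds and blocks active caspases, had 2383 and 2166 counts under hairpins 2 and 3, against 2355, with the control between the hairpins. BIRC2 and BIRC3 are neighbouring genes for the ubiquitin ligases cIAP1 and cIAP2 of TNF receptor signalling. BIRC2 had 2337 and 2070 counts, against 1894, and BIRC3 had 42 and 29, against 72. The log2 fold changes were 0.24 ± 0.145 for BIRC2 and -1 ± 0.382 for BIRC3 (edgeR adjusted p = 0.385 and 0.135), so the low-count gene had the larger change and the larger error. BIRC6, a giant ubiquitin ligase, had 5363 and 4481 counts, against 5041, the control again between the hairpins, and its fitted change of -0.012 turned to 0.0037 with median-of-ratios factors. The IAP antagonists DIABLO (SMAC) and HTRA2, released from mitochondria, had log2 fold changes of 0.14 ± 0.129 and 0.089 ± 0.129. LOXL3, on the other strand, covers 36.9% of the exon length of HTRA2, and AC048338.1 covers 19.3% of that of DIABLO, so the counts of both are uncertain.

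**Figure D4:**
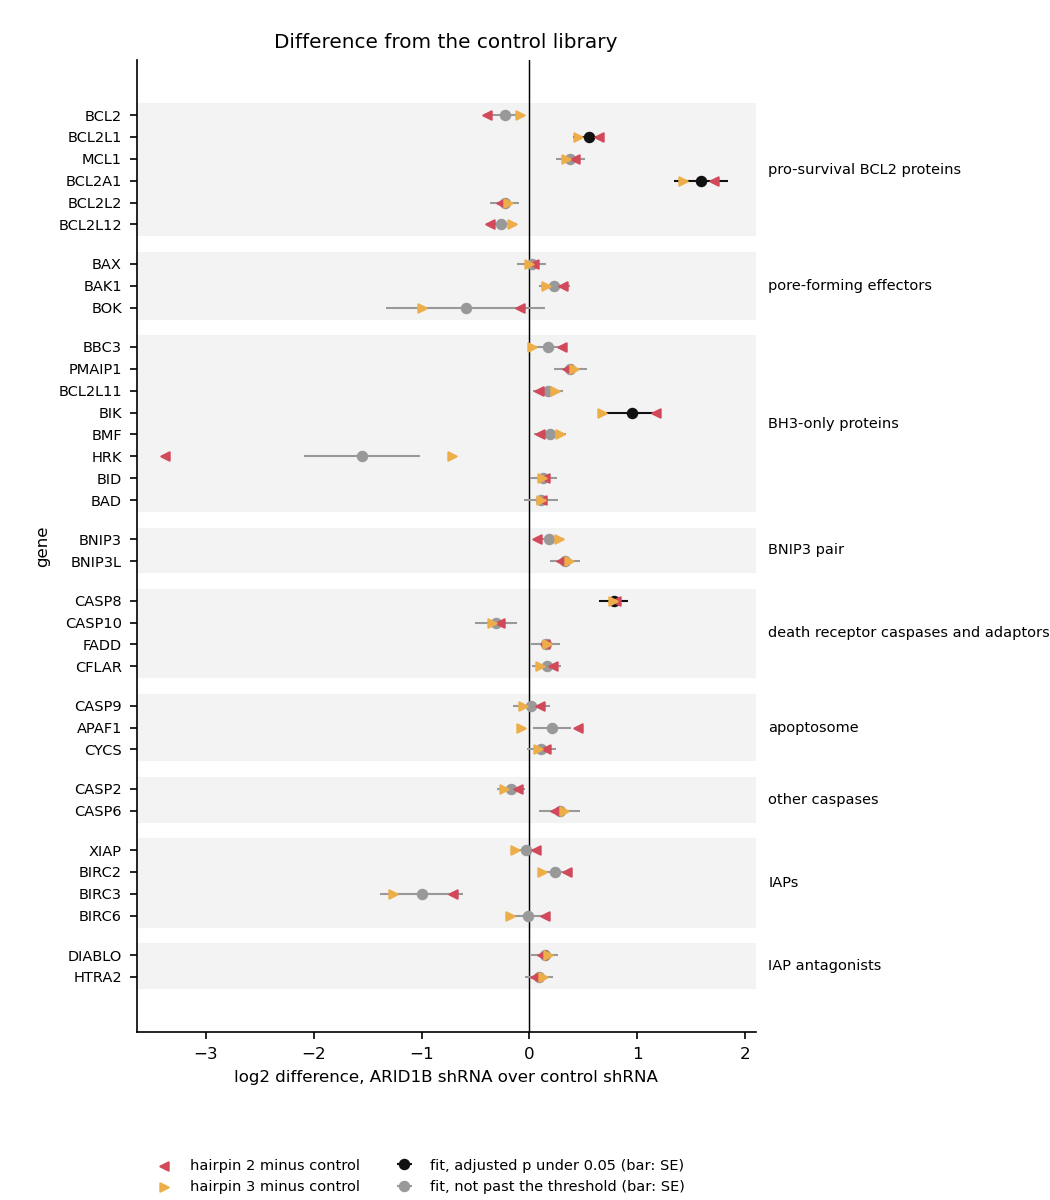
Log2 difference from the control library (x axis) for each of the 34 genes, as the fitted change with its standard error (circles, black where called) and as each hairpin library minus the control (triangles, log2 CPM with a prior count of 2). The 4 black circles lie right of 0, and the hairpins lie furthest apart in HRK, at -3.38 and -0.72.

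Related genes of the same pathways were counted in lists of their own, none tested as a set. Against a fold change of 1.5, TNFSF10 alone of the called genes named from these lists stayed called (edgeR adjusted p = 8.5e-04). Over all genes tested, 5.49% were called higher and 3.21% lower. Of 21 tested genes of the BCL2 family, caspases and IAPs outside the 34, 4 rose and 0 fell. Among those that rose, BCL2L10, a pro-survival relative, had 888 and 779 counts under hairpins 2 and 3, against 402 in the control (1.07 ± 0.185). TMBIM6, an endoplasmic reticulum protein known as BAX inhibitor, had 36418 and 36180 counts, against 24180 (0.61 ± 0.151), and its call was lost with a mean of at least 1 CPM (edgeR adjusted p = 0.0505). CASP1, the inflammasome caspase, had 900 and 584 counts, against 423 (0.84 ± 0.236), and its call was lost with DESeq2, with robust empirical Bayes and with a mean of at least 1 CPM. It was 0.46 without hairpin 2 and 1.15 without hairpin 3, in log2. The list's median was 0.05, against -0.012 over all genes tested.

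Among 19 tested genes of death receptors and their complexes, 3 rose and 0 fell (5.49% and 3.21% of all genes tested), with a median of 0.15. TNFSF10, the ligand TRAIL, had 1340 and 1374 counts under hairpins 2 and 3, against 509 in the control (1.43 ± 0.163, edgeR adjusted p = 3.3e-05). TNFRSF10B, a TRAIL receptor that signals through FADD and CASP8, had 4190 and 3824 counts, against 2597 (0.65 ± 0.139, adjusted p = 0.00678). CYLD, a deubiquitinase of the receptor complexes, had 2804 and 2417 counts, against 1581 (0.75 ± 0.15). TNFRSF1A, a TNF receptor, had 0.27 ± 0.131 and did not pass. Both knockdown libraries lay above the control in these 4 genes.

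Of 21 tested transcription factors known to act on BH3-only or BCL2 genes, 0 rose and 2 fell (5.49% and 3.21% of all genes tested). FOXO3, an activator of BCL2L11 and BBC3 in other cells, had 1373 and 1586 counts under hairpins 2 and 3, against 2821 in the control (-0.91 ± 0.136, edgeR adjusted p = 3.8e-04), and JUN had 543 and 665, against 1150 (-0.91 ± 0.164). MYC had -0.54 ± 0.175 and ATF4 0.091 ± 0.161, neither past the threshold (edgeR adjusted p = 0.0681 for MYC). MYC was called lower with DESeq2, library size alone, the legacy fit and upper quartile factors (adjusted p = 0.0254, 0.0265, 0.0399 and 0.0488; range over alternatives 0.0254 to 1).

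No gene was called among 9 of MCL1 turnover (2 at an unadjusted p under 0.05, both lower) or among 16 of mitochondrial channels and dynamics (0 at an unadjusted p under 0.05), in edgeR. In the first list HUWE1, a ubiquitin ligase for MCL1, had -0.065 ± 0.145 and USP9X, which removes ubiquitin from it, had -0.022 ± 0.136. The fitted changes of that list ran from -1.95 to 0.2, with a median of -0.03. Counts in it went down to 2, and standard errors went up to 0.691, with a median of 0.136. In the second VDAC1 and VDAC2, channels of the outer membrane, had 0.076 ± 0.145 and -0.027 ± 0.142. Of 15 mitophagy and autophagy genes 3 rose and 0 fell, against 5.49% and 3.21% of all genes tested. The 3 were the receptor SQSTM1 (0.62 ± 0.14) and the membrane-tethering proteins GABARAPL1 (0.94 ± 0.193) and GABARAPL2 (0.47 ± 0.139). GABARAPL2 was lost with DESeq2, upper quartile factors, robust empirical Bayes and a mean of at least 1 CPM, and SQSTM1 shares 22% of its exon length with MRNIP. The median of that list was 0.23.

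**Figure D5:**
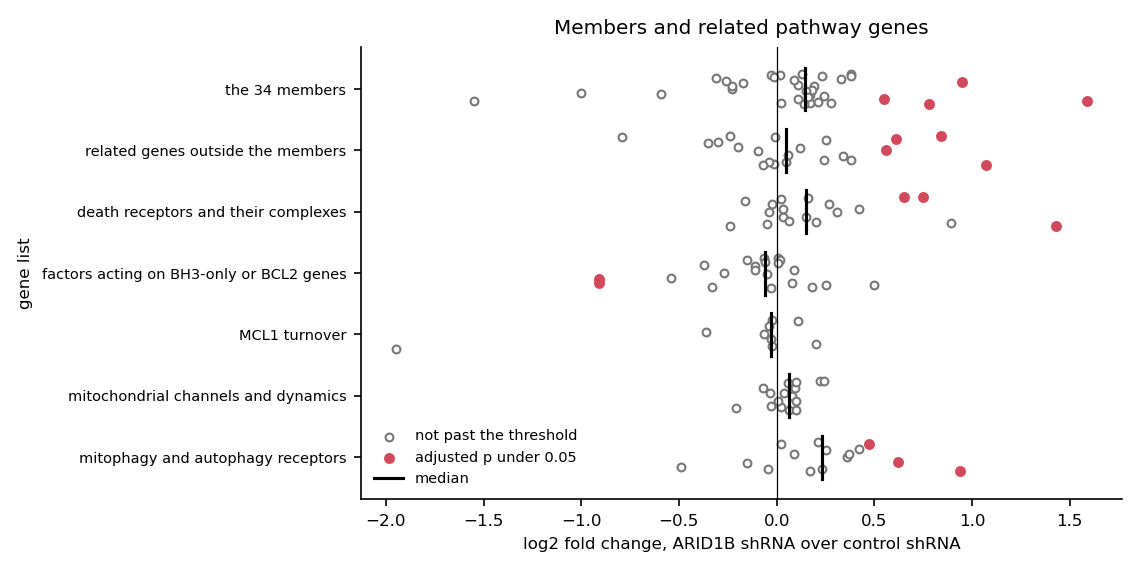
Fitted log2 fold change (x axis) of the 34 genes and of each tested gene in 6 related lists (rows), with called genes filled and the median of each row as a line. Medians lie between -0.059 and 0.23, and called genes are higher in 4 rows and lower in the row of transcription factors.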

How the data were processed

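The authors deposited raw read counts per Ensembl gene ID, not normalized, in 1 column per library. STAR, Cufflinks and featureCounts and the build hg19 are named, without versions or roles, per the submitters' processing notes. The sources used here name neither the annotation release nor whether strand was counted, so reads of overlapping genes may be split wrongly. GENCODE 29, of another build, served for names, exon length and shared exons. Where it had no entry, a second list of gene names was used, and 52338 IDs had a name from either source.

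The test was run with edgeR 4.0.16 in R 4.3.3: filterByExpr at a minimum count of 10, TMM factors of 1.0024, 0.9903 and 1.0074 (hairpin 2, hairpin 3, control), glmQLFit with legacy = FALSE and glmQLFTest, two-sided, adjusted over 20382 genes. CPM uses TMM-scaled library sizes. Alternatives included DESeq2 1.42.0. Replicate independence is not labelled, so the p-values cover the spread of these samples alone. The 2 knockdown libraries differ in hairpin, so their spread includes that difference. No repeat culture of a hairpin is labelled, so its technical part is unknown. Counting intervals (95%) cover counting error only, since reads carry no molecular identifiers.

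The members and lists were chosen with earlier results of these data known. Named genes were those called, 13 central members, and up to 4 per list (called first, then by mean count). Marker genes were taken from fixed lists. Some results of these lists are not reported here.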

Additional observations from a re-analysis of the deposited data

How the results depend on the processing

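Of the 34 genes, 4 were called higher in the reported fit and also with upper quartile factors, median-of-ratios factors, library size alone, the legacy fit and robust empirical Bayes. The number called higher was 0 without a filter on low counts, where 0 genes of the table were called in edgeR, 2 with a mean of at least 1 CPM, with DESeq2 and, chosen after seeing the data, when counted among genes with a mean of at least 5 CPM, and 1, BCL2A1, against a fold change of 1.5. The number called lower was 1, HRK, with library size alone and 0 under each other alternative. Over all genes 1119 were called higher and 655 lower; this was 622 and 338 with a mean of at least 1 CPM, 325 and 132 against a fold change of 1.5, and 775 and 277 with DESeq2.

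The median log2 fold change of the 34 genes, 0.15, was 0.098 with upper quartile factors, 0.13 with library size alone and 0.16 with median-of-ratios factors and DESeq2, and ranged from 0.11 to 0.14 when a hairpin was left out, which leaves 1 library against 1 and no test. With library size alone the median under hairpin 3 was 0.089. The direction turned for BAX (-0.027), CASP9 (-0.03) and SLC25A5 (-0.013) with upper quartile factors, and for BIRC6 with median-of-ratios factors (0.0037) and DESeq2 (0.0038); the cause was not tested. When a hairpin was left out the sign also turned for APAF1 (-0.075), CASP9 (-0.063), BAX (-0.00055), CUL1 (0.016) and VDAC2 (0.067) without hairpin 2, and for BIRC6 (0.15), USP9X (0.11), HUWE1 (0.083), XIAP (0.08), SLC25A5 (-0.012) and VDAC1 (-0.014) without hairpin 3, none of them called. No paired analysis was possible because the control has 1 library. With 1 control library, changes of 0.38 (MCL1, PMAIP1) did not pass, and the smallest change called among the 34 genes was 0.55 (BCL2L1). Larger changes of the low-count genes HRK (-1.55 ± 0.535), BIRC3 (-1 ± 0.382) and BOK (-0.59 ± 0.736) did not pass either, so size alone did not decide a call.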
